A study of Arabidopsis thaliana with 9 samples.

Results

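The 9 genes described here carry the best known steps of salt tolerance in *Arabidopsis thaliana*: *SOS1* (AT2G01980), *SOS2* (AT5G35410), *SOS3* (AT5G24270), *SOS4* (AT5G37850), *CIPK3* (AT2G26980), *CBL1* (AT4G17615), *CBL9* (AT5G47100), *HKT1* (AT4G10310) and *NHX1* (AT5G27150). They were taken by locus identifier, and all 9 were found among 33602 genes, together with 7 bins of annotated alternative splicing (AS) events of 7973 and 98 introns of 120717. RNA-seq had been made from whole plants of 3 genotypes, all in the Columbia ecotype and all grown at 22 °C in continuous light on medium without added salt: wild type (WT), the mutant *prmt5* (allele *prmt5-5*, which lacks a Type II arginine methyltransferase) and the double mutant *prmt4a;4b* (a cross of T-DNA insertion lines in both genes of the Type I enzyme PRMT4). Before growth, the seeds of all 3 genotypes were stratified for 4 days at 4 °C. The labels give a harvest at 15 days, while the methods give a younger age, and each mutant is represented by 1 allele or allele pair. Each genotype had 3 libraries, written below as library 1, 2 and 3, and both mutants were compared with the same 3 WT libraries, so the comparisons with WT are not independent of each other. Whether the libraries of a genotype came from separate plantings is not given in the sources used here, so the spread between them may be partly technical.

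In the SOS pathway the calcium sensor SOS3 binds and activates the protein kinase SOS2, and the pair switches on SOS1, a plasma membrane antiporter that exports sodium. SOS3 and SOS2 belong to the CBL (calcineurin B-like) sensors and the CIPK (CBL-interacting) kinases, families in which different sensor and kinase pairs serve different stresses, with CBL1 and CBL9 as close relatives at the plasma membrane and CIPK3 as a kinase of abscisic acid and cold responses. HKT1 retrieves sodium from the xylem, NHX1 moves sodium and potassium into the vacuole, and SOS4 is a pyridoxal kinase that makes the active form of vitamin B6. PRMT5 places symmetric dimethyl marks on arginines of histones and of spliceosomal Sm proteins, and PRMT4 places asymmetric ones, and loss of PRMT5 is known for altered pre-mRNA splicing.

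The sequences below show the places in these genes where the reads of a bin or an intron changed in at least 1 comparison, as 5′ splice sites (donors) with 10 exon bases and 20 intron bases. The exon E007 of *SOS4*, which also changed, is printed with its values. The capitals mark the last 3 exon bases and the first 6 intron bases. All were read from the RefSeq genome, assembly TAIR10.1, on the strand of the gene. The *CIPK3* I015 sequence stands at the edge of that bin. The bases before this edge lie in I016 (chr2:11518401-11518706), which the study also treats as an intron. Of 5 RefSeq mRNAs, 1 holds part of I016 as exon, and whether these bases are exon was not shown. Of the 120421 introns of the series on chromosomes 1 to 5 that are 20 bases or longer, 98.7% began with GT and ended with AG on this assembly, which shows that the coordinates of the files fit it.
*SOS4*, first donor, chr5:15065470-15065499, plus strand: gaaatctCCGGTTTTGctcaaacctgaaat
*SOS4*, second donor, chr5:15065503-15065532, plus strand: ttgtacaATTGTACTTaactaatacagttg
*SOS4* I007, chr5:15067187-15067216, plus strand: cttacatATGGTGGGTgcattgcgtcctct
*CIPK3* E006 and E007, chr2:11515684-11515713, minus strand: gaactacAAGGTTAGTgaaaactctgtaac
*CIPK3* I005, chr2:11515876-11515905, minus strand: tccagaaCAGGTTTGTgttctgttcctata
*CIPK3* I015, chr2:11518381-11518410, minus strand: aaaaattAAGGTTCTTttttgctttttaaa
*SOS1* I011, chr2:459045-459074, plus strand: gcctaccAAGGTGCCAttatttaatgttga
*SOS2* I008, chr5:13636234-13636263, plus strand: tcccaaaACAGTGAGTattttgctttgttc
*NHX1* I013, chr5:9556834-9556863, plus strand: tagcacaGTGGTAAGAaatctctggatgat

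The usual donor has AG as its last 2 exon bases, as do 52.1% of the 118821 GT-AG introns. The 3 *CIPK3* sites and that of *SOS1* I011 have these letters, with the limit given above for I015. Both *SOS4* donors near the 5′ end lack them. The first ends its exon with CG, as do 5.72% of introns, and the second with TT, as do 2.37%. The fifth intron base, a G in 49.6% of introns, was T at both. It was not G at *CIPK3* I015 (T) and *SOS1* I011 (C) either. The *SOS2* I008 donor, with CA, belongs to a class of 1.61% of introns. Those of *SOS4* I007 and *NHX1* I013, with TG, belong to a class of 13.5%. These are descriptions of the letters at each site.

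The libraries held 25029646 to 39904677 gene reads, with WT library 3 the shallowest and *prmt5* library 2 the deepest. Counts are given below as normalized read counts, which are reads scaled to a common library size with TMM factors, and the log2 fold changes, their approximate standard errors (SE) and the adjusted p come from quasi-likelihood tests in edgeR over all genes, bins or introns that passed the filters on low reads. The printed counts use TMM factors of all 9 libraries, and each test against WT uses factors of its own libraries. Ratios of printed counts can therefore differ somewhat from the printed changes. A gene was taken as changed at an adjusted p below 0.10 with an absolute log2 change above 0.58. The inserted genes served as a check of the labels: in *prmt4a;4b*, *PRMT4A* fell by 2.84 and *PRMT4B* by 3.96 on the log2 scale (adjusted p 5.29e-05 and 5.7e-06), while the transcript of *PRMT5* in *prmt5* stood at 874 ± 125 against 703 ± 24.7 in WT (SD, n = 3), so the level of this transcript does not mark the allele. *PRMT4A* was also lower in *prmt5* (-0.66 ± 0.15, adjusted p 0.00645), while *PRMT4B* did not pass there (0.0022 ± 0.15, adjusted p 0.993). Root markers (18 genes, all with reads except *NRT2.1* at 0 in *prmt5* library 3) summed to 235 to 296 CPM in WT, 291 to 358 in *prmt5* and 223 to 285 in *prmt4a;4b*, with 5 of 18 higher and 2 lower in *prmt5* and 1 higher and 2 lower in *prmt4a;4b*. Leaf markers (7 genes, all with reads) summed to 24350 to 27620 CPM, 23220 to 36020 and 19000 to 21750 in the same order, with 0 higher and 1 lower in *prmt5* and 0 higher and 3 lower in *prmt4a;4b*. Beside these marker counts, 11.9% of all genes tested were higher and 14.2% lower in *prmt5*. In *prmt4a;4b* the shares were 13.8% and 12.0%. Plastid-encoded transcripts took 0.323% to 0.58% of gene reads in WT, 0.604% to 2.1% in *prmt5* and 0.869% to 3.94% in *prmt4a;4b*. The part of organ proportions or of plastid reads in the results below was not tested, and in whole plants fewer cells of a type and less RNA per cell cannot be told apart.

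Compared per kilobase of exon, the 9 transcripts fell into a high and a low set in WT. *NHX1* was the most abundant, at 17.8 ± 2.28 RPKM (reads per kilobase of exon, scaled to library size, SD, n = 3), followed by *CIPK3* at 12.4 ± 1.61 and *SOS4* at 8.16 ± 1.32, and the ranges of these neighbours did not overlap. The other 6 lay between 3.17 ± 1.43 RPKM for *CBL9* and 1.05 ± 0.35 for *SOS3*, and in this lower part of the order each gene overlapped the next. In *prmt5* and in *prmt4a;4b* the mean of *CIPK3* (14.9 ± 3.2 and 15.8 ± 3.21 RPKM) stood above that of *NHX1* (12.8 ± 1.12 and 14 ± 1.15), with overlapping ranges. *SOS3* moved from the lowest place in WT to the fifth in *prmt5* at 2.11 ± 0.0476 RPKM, and kept the lowest place in *prmt4a;4b* at 1.12 ± 0.359. *SOS2*, *SOS3*, *CBL1*, *CBL9* and *HKT1* had between 22 and 203 reads per library, which limits the precision of their changes.

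**Figure D1:**
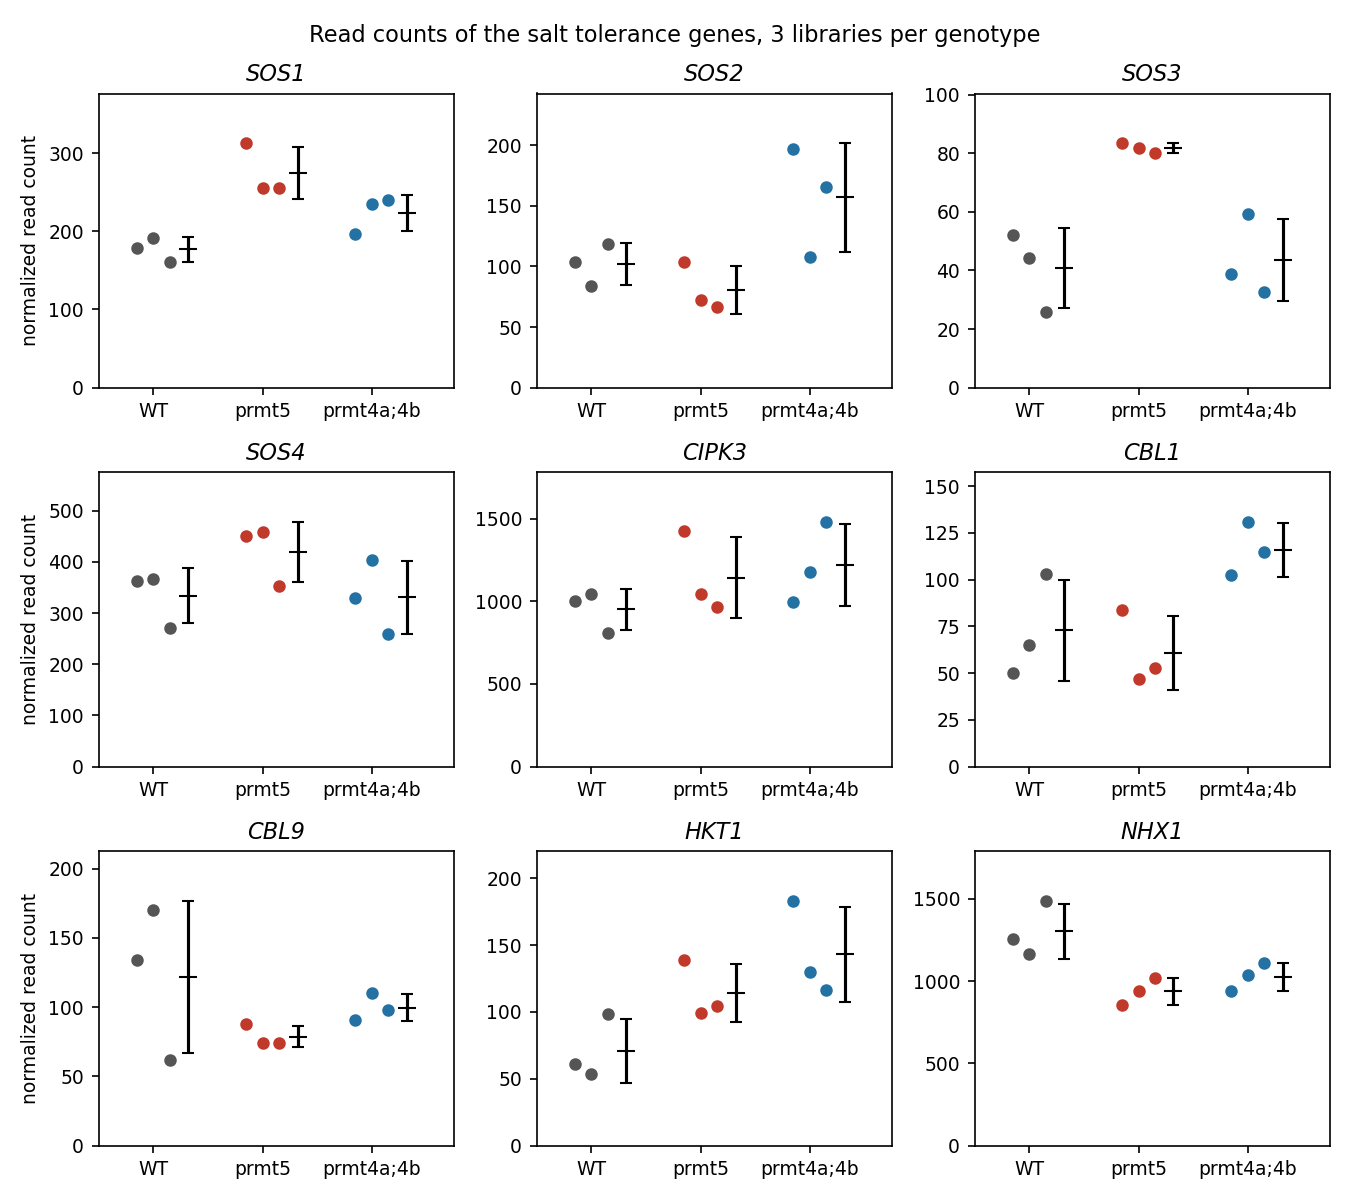
Normalized read counts of the 9 genes (y axis, from 0) in WT, *prmt5* and *prmt4a;4b* (x axis), with 1 point per library and the mean with its SD (n = 3) beside the points. The points of *SOS1* and *SOS3* in *prmt5* and of *HKT1* in both mutants lie above all WT points, and those of *NHX1* in both mutants lie below.

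In *prmt5*, 3 of the 9 genes rose (*SOS1*, *SOS3* and *HKT1*), 0 fell and 6 did not pass in edgeR, with 1 lower at an unadjusted p below 0.05 (*NHX1*) and 1 called lower by DESeq2 (*CBL9*, adjusted p 0.0994). Over all 21078 genes tested, 11.9% were higher and 14.2% lower in *prmt5*. The median log2 change of the 9 was 0.22, beside -0.01 over all genes tested. In *prmt4a;4b*, 3 rose (*SOS2*, *CBL1* and *HKT1*), 0 fell in edgeR or DESeq2, with 1 lower at an unadjusted p below 0.05 (*NHX1*), and 6 did not pass, beside 13.8% higher and 12.0% lower of 20844 genes. The median of the 9 was 0.34 there, beside -0.00077 over all genes tested. *HKT1* was called in both comparisons, which share their WT libraries.

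*SOS3*, the calcium sensor of the pathway, counted 52.1, 44.4 and 25.8 in the WT libraries and 83.6, 81.9 and 79.9 in *prmt5*, with 38.7, 59.2 and 32.6 in *prmt4a;4b*. All 3 *prmt5* libraries were above every other library and lay close together, while the WT and *prmt4a;4b* ranges overlapped. The change in *prmt5* was 0.95 ± 0.29 (SE, adjusted p 0.0286), a 1.93-fold rise, and it kept its call under all 14 alternatives tried, leaving out each library included. In *prmt4a;4b* it was 0.09 ± 0.37 (adjusted p 0.87). Set directly against each other, *prmt5* was higher than *prmt4a;4b* by 0.90 ± 0.31 (adjusted p 0.0508). That call was lost without *prmt5* library 2 (adjusted p 0.118) or 3 (0.118) and without *prmt4a;4b* library 1 (0.123) or 3 (0.18), at log2 differences of 0.72 to 0.90.

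*SOS2*, the kinase that SOS3 activates, counted 103, 83.7 and 118 in WT and 103, 72.5 and 66.3 in *prmt5*, while *prmt4a;4b* had 197, 108 and 166. The *prmt4a;4b* libraries were all above the *prmt5* libraries, and both mutants overlapped WT. The direct difference between the mutants, -0.96 ± 0.26 with *prmt5* lower (adjusted p 0.0184), kept its call under all 17 alternatives. Against WT, *SOS2* rose by 0.63 ± 0.25 in *prmt4a;4b* (adjusted p 0.0668) and had a value of -0.38 ± 0.24 in *prmt5* (adjusted p 0.258). The rise in *prmt4a;4b* was lost without WT library 1 (0.64, adjusted p 0.131) or 2 (0.50, adjusted p 0.194) and without *prmt4a;4b* library 1 (0.42, adjusted p 0.243) or 3 (0.56, adjusted p 0.167).

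*SOS1*, the sodium exporter at the end of the pathway, counted 179, 192 and 160 in WT and 313, 256 and 255 in *prmt5*, with 197, 235 and 239 in *prmt4a;4b*. The groups stood in the order WT, *prmt4a;4b*, *prmt5* without any overlap. The rise in *prmt5* was 0.59 ± 0.17 (adjusted p 0.0201), only just past the limit of 0.58 on its size, and without WT library 3 (0.52) or *prmt5* library 1 (0.49) it was below that limit. In *prmt4a;4b* the value was 0.34 ± 0.17 (adjusted p 0.137), and the direct difference of 0.29 ± 0.16 did not pass (adjusted p 0.202).

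*HKT1*, which takes sodium out of the xylem sap, counted 60.8, 53.6 and 98.3 in WT and 139, 99.0 and 104 in *prmt5*, while *prmt4a;4b* had 183, 130 and 116. Every library of each mutant was above every WT library, although WT library 3 reached almost to the lowest *prmt5* library. The rise was 1.03 ± 0.28 in *prmt4a;4b* (adjusted p 0.0131, a 2.04-fold rise), and it kept its call under all 14 alternatives. In *prmt5* it was 0.65 ± 0.27 (adjusted p 0.0826). This second call was lost without WT library 1 (0.56, adjusted p 0.226) or 2 (0.49, adjusted p 0.238) and without *prmt5* library 1 (0.50, adjusted p 0.223) or 3 (0.72, adjusted p 0.111), and the mutants did not differ detectably from each other (-0.33 ± 0.26, adjusted p 0.382).

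*NHX1*, the vacuolar antiporter, counted 1256, 1166 and 1490 in WT and 855, 942 and 1019 in *prmt5*, with 939, 1036 and 1108 in *prmt4a;4b*. All 6 mutant libraries were below the 3 WT libraries. The differences were among the best determined of the 9 genes, at -0.52 ± 0.13 in *prmt5* (adjusted p 0.0139) compared with -0.34 ± 0.13 in *prmt4a;4b* (adjusted p 0.0559), but both are smaller than 0.58 and were not counted as changes. Without WT library 2 the *prmt5* value was -0.58 (adjusted p 0.022) and passed both limits.

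*CBL1* and *CBL9* are the calcium sensors of the set beside *SOS3*. *CBL1* counted 50.2, 65.3 and 103 in WT and 83.6, 46.8 and 52.7 in *prmt5*, while *prmt4a;4b* had 102, 131 and 115, so that the mutants were apart from each other while WT overlapped both. It rose by 0.69 ± 0.27 in *prmt4a;4b* (adjusted p 0.0706) and was lower in *prmt5* than in *prmt4a;4b* by -0.94 ± 0.29 (adjusted p 0.0363), with a value of -0.30 ± 0.33 in *prmt5* against WT (adjusted p 0.512). The rise in *prmt4a;4b* was lost without WT library 1 (0.48, adjusted p 0.237) or 2 (0.62, adjusted p 0.168) or *prmt4a;4b* library 2 (0.57, adjusted p 0.202) or 3 (0.67, adjusted p 0.139), and the direct difference without *prmt5* library 2 (-0.77, adjusted p 0.137) or 3 (-0.86, adjusted p 0.112) or *prmt4a;4b* library 2 (-0.86, adjusted p 0.107). *CBL9* counted 134, 170 and 62.1 in WT and 87.8, 74.1 and 74.4 in *prmt5*, with 91.1, 110 and 97.9 in *prmt4a;4b*. Library 3 was lower than the other 2 WT libraries and below all 6 mutant libraries. The value for *prmt5* was -0.69 ± 0.32 (adjusted p 0.116), and without WT library 3 it was -1.002 (adjusted p 0.00971). For *prmt4a;4b* the value was -0.30 ± 0.31 (adjusted p 0.473), with -0.61 (adjusted p 0.0519) without WT library 3 and 0.02 without WT library 2.

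*CIPK3* and *SOS4* did not pass at the gene level in any comparison. *CIPK3* ranged from 810 to 1041 in WT, 963 to 1423 in *prmt5* and 994 to 1482 in *prmt4a;4b*, with values of 0.22 ± 0.17 (adjusted p 0.341) and 0.36 ± 0.16 (adjusted p 0.0941, below the limit on size). *SOS4* ranged from 272 to 367 in WT, 352 to 458 in *prmt5* and 260 to 403 in *prmt4a;4b*, with 0.29 ± 0.17 (adjusted p 0.219) and -0.01 ± 0.18 (adjusted p 0.966). Between *prmt5* and *prmt4a;4b*, 1 of the 9 genes was higher in *prmt5* (*SOS3*) and 2 were lower (*SOS2* and *CBL1*), beside 9.39% higher and 8.37% lower of 21193 genes. The sensor and the kinase of the pathway stood on opposite sides in the direct comparison.

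**Figure D2:**
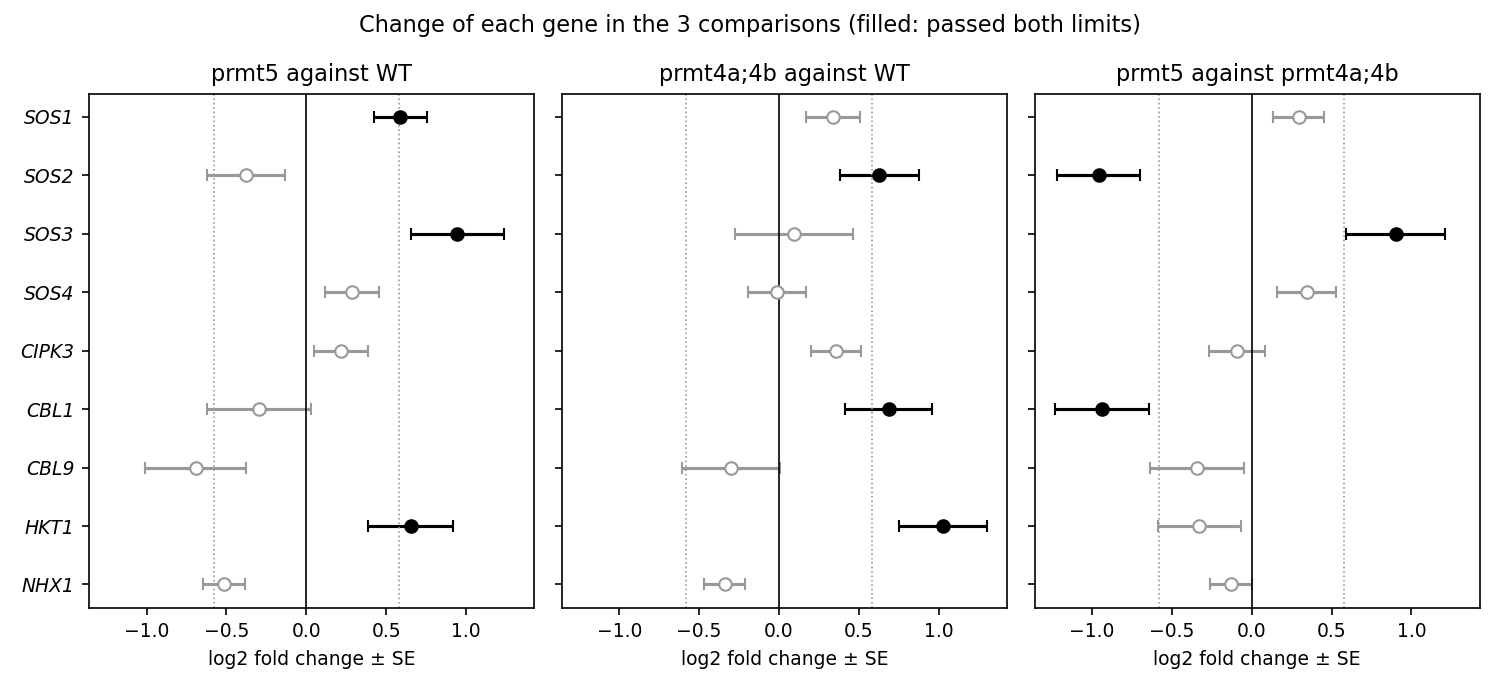
Log2 fold change with its SE (x axis) of each of the 9 genes (y axis) in the 3 comparisons, with dotted lines at the size limit of 0.58 and filled points for genes past both limits. *SOS3* at 0.95 and *HKT1* at 1.03 are the largest rises against WT, and *SOS2* at -0.96 and *CBL1* at -0.94 the largest differences between the mutants.

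Splicing was read from the reads in bins, as bin reads and as the splicing index, which is the read density of a bin divided by that of its gene. A bin or an intron was taken as changed at an adjusted p below 0.15 with absolute log2 changes above 0.58, in the same direction, of both its reads and its splicing index. Of the 7 AS bins, 4 belong to *CIPK3*, 2 to *SOS4* and 1 to *CBL1*. The *CBL1* bin had 0 reads in all 9 libraries. In *prmt5*, 5 bins passed the filters and 3 rose, 0 fell, and 2 did not pass, beside 15.6% higher and 12.7% lower of 4353 bins. In *prmt4a;4b*, 4 passed the filters, 3 rose and 0 fell, beside 18.6% higher and 14.4% lower of 4080 bins. Those that rose were *SOS4* E003, *SOS4* E007 and *CIPK3* E007 in both mutants. In the direct comparison 0 of the 5 bins tested passed in edgeR, with 0 at an unadjusted p below 0.05 and 0 called by the exact test or DESeq2, beside 6.97% higher and 3.43% lower of 4379 bins.

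Of the 98 introns, 12 had no read in any library and 11 passed the filters in at least 1 comparison. In *prmt5*, 10 were tested, 4 rose (*SOS4* I002 and I007, *SOS1* I011 and *CIPK3* I015) and 2 fell (*CIPK3* I005 and *NHX1* I013), beside 33.2% higher and 7.55% lower of 14894 introns. In *prmt4a;4b*, 8 were tested, 3 rose (*SOS4* I002, *CIPK3* I015 and *SOS2* I008) and 0 fell, beside 15.5% higher and 10.6% lower of 10996. Between the mutants, 1 of 9 introns tested was higher in *prmt5* (*SOS4* I002) and 0 lower, beside 19.8% and 2.56% of 15684. The median log2 change over all introns tested was 0.67 in *prmt5* and 0.11 in *prmt4a;4b* against WT, and 0.47 for *prmt5* against *prmt4a;4b*. An intron with few reads could pass the filters through the genotype in which it was high, so these counts do not describe all 98 introns.

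*SOS4*, the pyridoxal kinase, differed in splicing at 2 places in the gene. Near its 5′ end the first intron can start at either of the donors printed above. The stretch between them is bin E003 (33 bases, chr5:15065480-15065512), and the rest of the intron is I002 (92 bases, chr5:15065513-15065604). Of the 4 RefSeq mRNAs of *SOS4*, 2 hold E003 as exon and 1 of these also holds I002.

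E003 had 4, 10 and 5 reads in WT and 21, 32 and 13 in *prmt5*, while *prmt4a;4b* had 14, 21 and 9. Its splicing index was 0.421, 0.898 and 0.85 in WT and 1.92, 2.15 and 1.32 in *prmt5*, while *prmt4a;4b* had 2.09, 2.17 and 1.65, so every mutant library was above every WT library. The reads rose by 1.62 ± 0.54 in *prmt5* (adjusted p 0.0328) and by 1.46 ± 0.59 in *prmt4a;4b* (adjusted p 0.0654). The first call was lost without *prmt5* library 2 (1.40, adjusted p 0.152), and the second without WT library 1 (1.22, adjusted p 0.174) or *prmt4a;4b* library 2 (1.18, adjusted p 0.249).

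I002 had 8, 5 and 9 reads in WT and 52, 78 and 35 in *prmt5*, while *prmt4a;4b* had 14, 30 and 12, with splicing indices of 0.302, 0.161 and 0.549, of 1.71, 1.88 and 1.28 and of 0.75, 1.11 and 0.789. The groups stood in the order WT, *prmt4a;4b*, *prmt5* with no overlap, and the splicing index of I002 in *prmt5* was above 1 in every library. The index is not the share of mRNAs that hold a bin, since it reached 2.71 at exon E007 in *prmt5*. Bins this short can count reads that lie in them only in part, so the share of mRNAs with I002 was not measured. The rise was 2.70 ± 0.43 in *prmt5* (adjusted p 2.66e-05), with the same call under all 15 alternatives, and 1.54 ± 0.52 in *prmt4a;4b* (adjusted p 0.0472), where it was lost without WT library 2 (1.23, adjusted p 0.155) or *prmt4a;4b* library 2 (1.098, adjusted p 0.246). The direct difference, 1.19 ± 0.39 higher in *prmt5* (adjusted p 0.0325), was lost without *prmt5* library 2 (1.00, adjusted p 0.18) or *prmt4a;4b* library 3 (0.97, adjusted p 0.173). It stands beside a median of 0.47 in the same direction over all introns tested. E003 and I002 lie side by side and a read longer than E003 can count in both, so they are not independent measurements, and a retained intron would add reads to each.

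Read on the genome from the start codon of the mRNAs that use the first donor (first base chr5:15065394), the *SOS4* coding sequence has 343 codons before its stop. With E003 in place, by the second donor or by keeping I002, the same frame meets a taa stop at chr5:15065499-15065501, inside E003, after 35 codons. RefSeq instead starts the coding sequence of both mRNAs with E003 downstream, at chr5:15065621, with 309 codons before the stop. Which of these reading frames is translated was not measured.

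The second place in *SOS4* is the exon E007 (84 bases, chr5:15067113-15067196), which 3 of the 4 RefSeq mRNAs include and 1 skips. It is shown here with 10 intron bases on each side, with the exon in capitals, because it had the lowest adjusted p of the AS bins of these genes in both mutants.
*SOS4* E007, chr5:15067103-15067206, plus strand: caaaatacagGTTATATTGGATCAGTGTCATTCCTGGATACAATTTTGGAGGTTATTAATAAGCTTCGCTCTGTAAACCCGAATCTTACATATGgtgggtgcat

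The exon codes for 28 codons with 0 bases left over, so its skipping keeps the frame, with 315 codons in place of 343. E007 had 29, 27 and 12 reads in WT and 70, 90 and 68 in *prmt5*, with 43, 51 and 34 in *prmt4a;4b*. Its splicing index was 1.2, 0.953 and 0.801 in WT and 2.52, 2.38 and 2.71 in *prmt5*, while *prmt4a;4b* had 2.52, 2.07 and 2.45. Both mutants were well apart from WT and overlapped each other. Reads of the exon rose by 1.60 ± 0.32 in *prmt5* (adjusted p 0.0013) and by 1.19 ± 0.35 in *prmt4a;4b* (adjusted p 0.0157), and both calls were kept under all 15 alternatives. The mutants differed by 0.46 ± 0.29 (adjusted p 0.353). More exon reads per gene read is the direction of more inclusion.

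The intron after E007, I007 (188 bases, chr5:15067197-15067384), had 1, 1 and 0 reads in WT and 1, 5 and 9 in *prmt5*, with 1, 0 and 1 in *prmt4a;4b*. It passed in *prmt5* (2.54 ± 1.13, adjusted p 0.0866) on a handful of reads in libraries 2 and 3, with overlap between the groups. The call was lost without WT library 3 (2.13, adjusted p 0.18), with DESeq2 (2.77, adjusted p 0.19) and without the filters (2.55, adjusted p 0.296), and I007 too passed the filter on reads only through *prmt5*. Over its 12 introns together, intron reads came to 4.27% to 7.76% of gene reads in WT, 16.2% to 19.1% in *prmt5* and 11% to 12.3% in *prmt4a;4b*, and in *prmt5* I002 held 52 of 78, 78 of 112 and 35 of 63 of these reads.

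**Figure D3:**
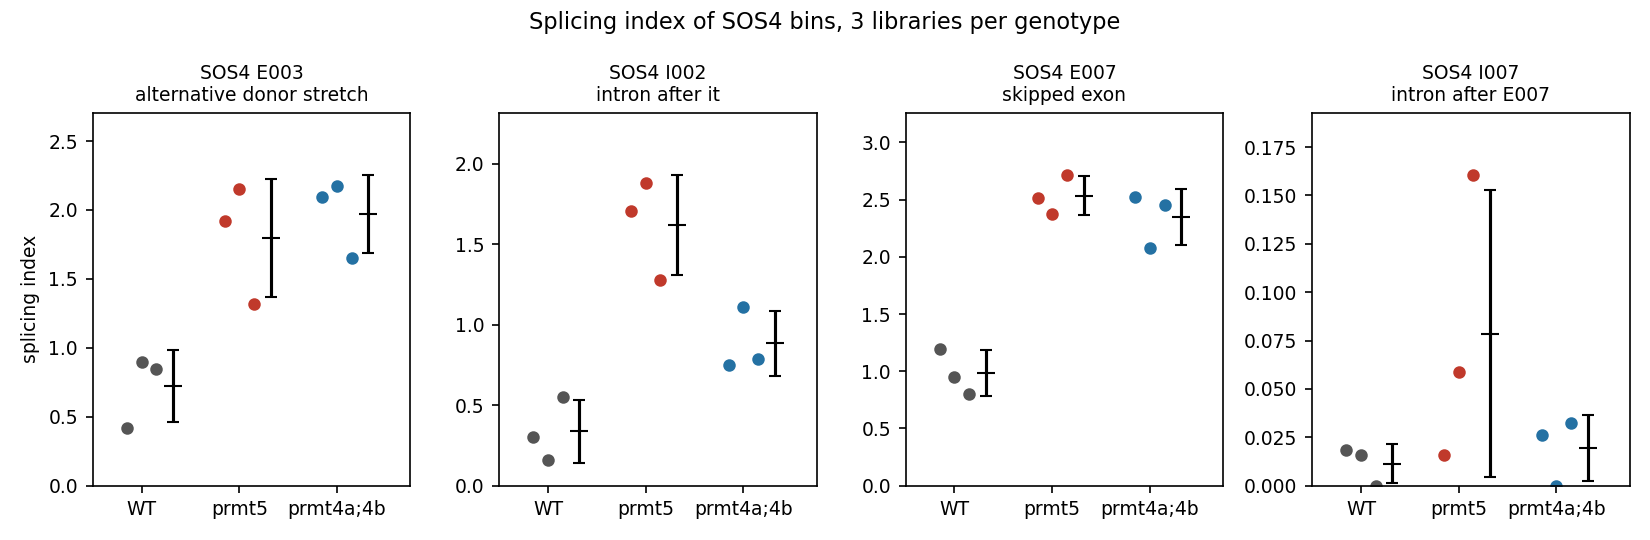
Splicing index (y axis, from 0, a ratio without unit) of 4 bins of *SOS4* in WT, *prmt5* and *prmt4a;4b*, with 1 point per library and the mean with its SD (n = 3). In E003, I002 and E007 all mutant points lie above all WT points, and in I007 the *prmt5* points spread from 0.0161 to 0.1605.

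In *CIPK3* the change with the most reads was in I015 (191 bases, chr2:11518210-11518400), which the TAIR10 bins of the study treat as an intron near the 5′ end of the gene. In RefSeq 1 of 5 *CIPK3* mRNAs holds all of I015 as exon, 3 hold part of it and 1 has it as intron, and it is coding in none. Reads there can therefore come from mRNAs that begin with these exons as well as from an unspliced intron. I015 had 40, 30 and 18 reads in WT and 100, 83 and 71 in *prmt5*, while *prmt4a;4b* had 67, 73 and 78. The splicing index was 0.493, 0.309 and 0.333 in WT and 0.94, 0.795 and 0.857 in *prmt5*, while *prmt4a;4b* had 1.08, 0.839 and 0.814, with both mutants above WT and overlapping each other. The rise was 1.40 ± 0.33 in *prmt5* (adjusted p 0.00228). In *prmt4a;4b* it was 1.58 ± 0.32 (adjusted p 0.00209), and both kept their call under all 15 alternatives. Between the mutants it was -0.13 ± 0.30 (adjusted p 0.823).

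The AS bins E006 (18 bases, chr2:11515620-11515637) and E007 (66 bases, chr2:11515638-11515703) of *CIPK3* together make up an intron of 84 bases that 1 of the 5 RefSeq mRNAs retains, with its coding sequence ending inside E007. The files mark both bins with a warning in place of an event type. E007 had 5, 4 and 2 reads in WT and 12, 14 and 10 in *prmt5*, while *prmt4a;4b* had 3, 17 and 8. The *prmt5* libraries were all above WT, while *prmt4a;4b* library 1 fell within the WT range. In both comparisons with WT the bin passed the filter on reads only through the mutant, where it is high. The rise was 1.54 ± 0.68 in *prmt5* (adjusted p 0.0999) against 1.55 ± 0.78 in *prmt4a;4b* (adjusted p 0.135, unadjusted p above 0.05), where DESeq2 did not call it (adjusted p 0.19). In *prmt5* it was lost without WT library 2 (adjusted p 0.182) or without *prmt5* library 1 (0.218), 2 (0.203) or 3 (0.157), and in *prmt4a;4b* without any of the 3 WT libraries (0.165, 0.215 and 0.203) or *prmt4a;4b* library 2 (0.89, adjusted p 0.52) or 3 (0.212). It was also lost in *prmt4a;4b* with the gene count as offset (1.21, adjusted p 0.242), and without the filters in *prmt5* (adjusted p 0.151) and *prmt4a;4b* (0.188). E006 was tested in *prmt5* and did not pass (1.05 ± 0.77, adjusted p 0.323). In *prmt4a;4b* E006 was too low to be tested, with 12 reads in total against 14 in WT. Its mean splicing index was 0.52 in *prmt4a;4b* and 0.56 in WT. The neighbour E004, an intron retention bin, did not pass in either mutant (adjusted p 0.927 and 0.571). The intron I005 of *CIPK3* (78 bases, chr2:11515818-11515895) was lower in *prmt5*, at 10, 4 and 6 reads against 15, 17 and 9 in WT, with 2, 7 and 12 in *prmt4a;4b*. Its change was -1.13 ± 0.56 (adjusted p 0.126) in *prmt5* and -0.68 ± 0.56 (adjusted p 0.401) in *prmt4a;4b*. The call in *prmt5* was lost without WT library 1 (-1.06) or 2 (-1.06) or *prmt5* library 2 (-0.78) or 3 (-1.05), and with DESeq2 (adjusted p 0.238), no filters (0.376) or the joint fit of 9 libraries (0.161).

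The other introns that passed had few reads. *SOS1* I011 (484 bases, chr2:459055-459538) had 0, 2 and 0 reads in WT and 8, 9 and 2 in *prmt5*, with 0, 2 and 2 in *prmt4a;4b*. It rose by 2.91 ± 1.1 in *prmt5* (adjusted p 0.0458), and was too low to be tested in *prmt4a;4b*. It passed the filter on reads only through *prmt5*, where it is high, so that its call is a description, and *prmt5* library 3 did not exceed WT library 2 in reads or splicing index. *SOS2* I008 (103 bases, chr5:13636244-13636346) had 3, 1 and 3 reads in WT and 5, 6 and 3 in *prmt5*, while *prmt4a;4b* had 6, 6 and 11. It rose by 1.90 ± 0.78 in *prmt4a;4b* (adjusted p 0.0988), and lost its call without WT library 1 (adjusted p 0.157) or 2 (0.235) or *prmt4a;4b* library 3 (0.328), with DESeq2 (0.201) and without the filters (0.403). It passed the filter on reads only through *prmt4a;4b*, where it is high, so that this call too is a description. With the reads of the gene as offset, which takes the rise of *SOS2* itself into account, the value was 1.33 (adjusted p 0.251), and the call was lost. *NHX1* I013 (93 bases, chr5:9556844-9556936) had 4, 9 and 5 reads in WT and 0, 1 and 3 in *prmt5*, while *prmt4a;4b* had 0, 3 and 1, and every mutant library was below WT. It fell by 2.21 on the log2 scale in *prmt5* (SE 0.96, adjusted p 0.0803), with -1.83 ± 1.0 (adjusted p 0.205) in *prmt4a;4b*. It passed the filter on reads only through WT, where it is high. The call was lost without *prmt5* library 1 (-1.73, adjusted p 0.218) or 2 (-1.97, adjusted p 0.206) and with DESeq2 (adjusted p 0.16), the gene count as offset (-1.77, adjusted p 0.171) or no filters (adjusted p 0.259).

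**Figure D4:**
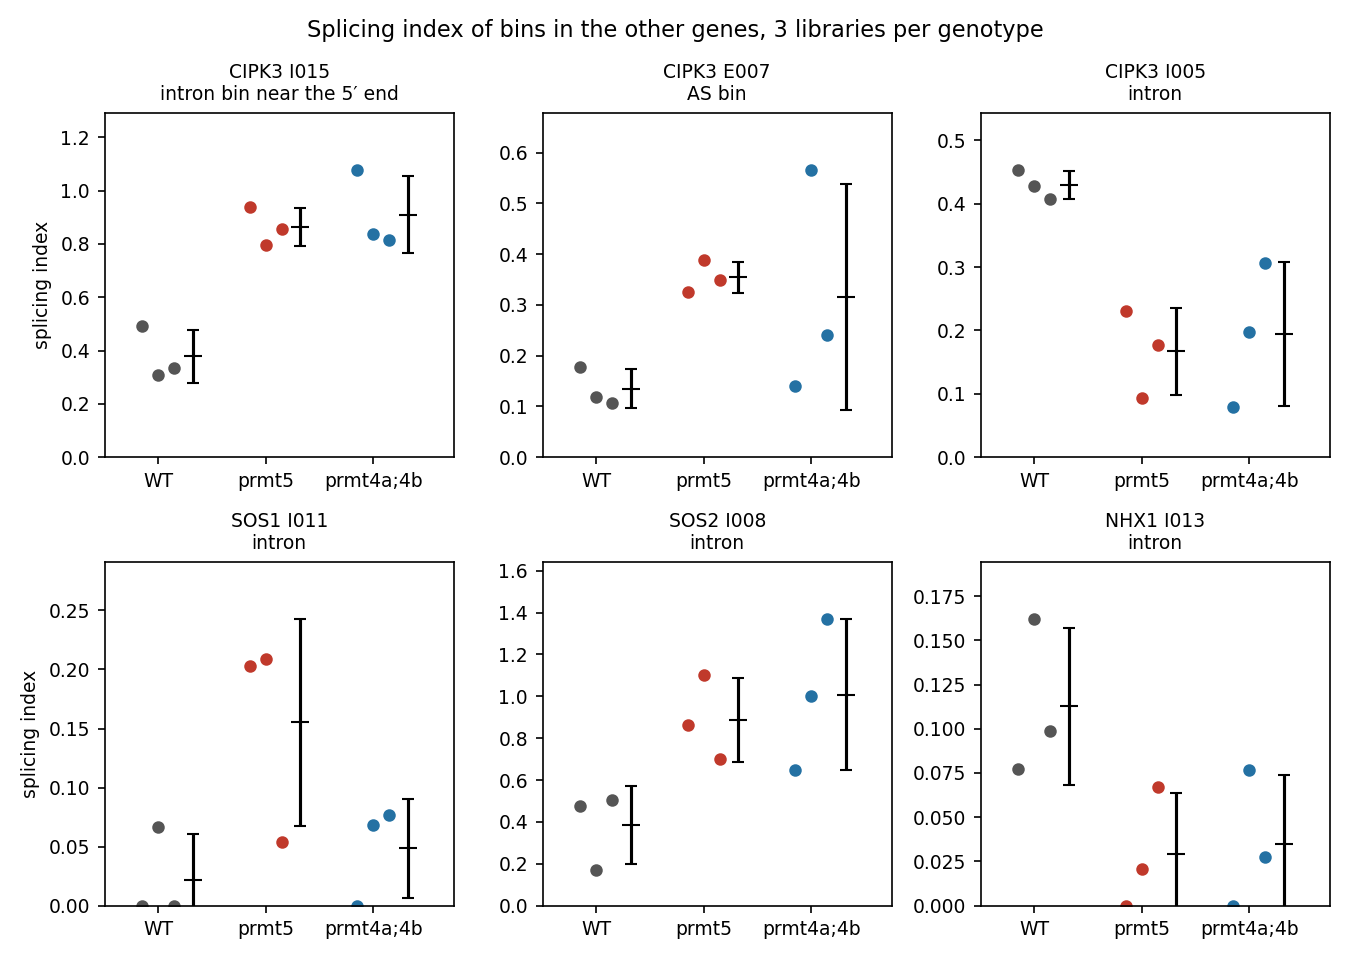
Splicing index (y axis, from 0, a ratio without unit) of 6 bins in *CIPK3*, *SOS1*, *SOS2* and *NHX1* in WT, *prmt5* and *prmt4a;4b*, with 1 point per library and the mean with its SD (n = 3). In *CIPK3* I015 the mutant points lie between 0.795 and 1.08 and the WT points between 0.309 and 0.493, and in *CIPK3* I005 and *NHX1* I013 all mutant points lie below WT.

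The splicing index was also compared per library, with an exact two-sided permutation test over the libraries of a pair of genotypes, which with 3 against 3 cannot give a p below 0.1. It is listed here only for the 10 bins and introns that passed in a comparison. These 10 were picked by differences between the same libraries, so reaching the smallest p here is a description and adds no support to their calls. *SOS4* E003, I002 and E007, *CIPK3* I015 and I005 and *SOS2* I008 reached this smallest p against WT in both mutants. In *prmt5*, *SOS2* I008 was too low to be tested in edgeR. The mean log2 difference of *SOS4* I002 was 2.33 in *prmt5* and 1.49 in *prmt4a;4b* (exact permutation p 0.1 for each), and that of *SOS4* E007 was 1.36 and 1.25 (exact permutation p 0.1 for each). Of the 10 bins and introns that passed in a comparison, only *SOS4* I002 reached it between the mutants, at 0.85 (exact permutation p 0.1).

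Of the other 7 CBL genes, 6 were tested in *prmt5*, with 2 higher and 1 lower, and 5 in *prmt4a;4b*, with 1 higher and 0 lower. The tonoplast sensors *CBL2* and *CBL3* both had higher means in both mutants, with *CBL3* past the limits in *prmt5* (0.67 ± 0.14, adjusted p 0.00428) and *CBL2* in *prmt4a;4b* (1.099 ± 0.18, adjusted p 0.000844). *CBL10*, a sensor that also pairs with SOS2, fell by 0.65 in *prmt5* (SE 0.18, adjusted p 0.0183). *CBL8* rose by 2.51 ± 0.67 in *prmt5* (adjusted p 0.0154) from a mean of 2.69 counts in WT, and was tested only because of its level in *prmt5*. Among the other 24 CIPK genes, 1 was higher and 2 lower of 24 tested in *prmt5*, and 2 higher and 1 lower of 23 tested in *prmt4a;4b*. Over all genes tested, 11.9% were higher and 14.2% lower in *prmt5*, while *prmt4a;4b* had 13.8% higher and 12.0% lower. Each of the 4 CIPK counts is a smaller share of its list than that. *CIPK13* fell by 2.48 in *prmt5* (SE 0.44, adjusted p 0.00224), from 52.8 ± 19.2 to 9.63 ± 3.72 counts, and stood at 59.5 ± 4.0 in *prmt4a;4b* (SD, n = 3). *CIPK21* rose by 1.12 ± 0.16 in *prmt4a;4b* (adjusted p 0.000393), and *CIPK17* rose in both mutants (1.36 ± 0.28, adjusted p 0.00433, and 0.74 ± 0.30, adjusted p 0.0733). The median log2 change of the other CIPK genes was 0.0026 in *prmt5* and 0.13 in *prmt4a;4b*.

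Among 11 further genes of sodium, potassium and proton transport, 3 were higher and 1 lower in *prmt5*, and 3 higher and 0 lower in *prmt4a;4b*. Beside the same shares of all genes, lists of 5 to 11 genes are too short to read a count as particular to them. The endosomal antiporters *NHX5* and *NHX6* rose in both, by 0.71 ± 0.19 and 1.02 ± 0.16 in *prmt5* (adjusted p 0.0146 and 0.00136) and by 0.62 ± 0.13 and 0.65 ± 0.17 in *prmt4a;4b* (adjusted p 0.0041 and 0.012), whereas their vacuolar relative *NHX1* had negative values in both. *HAK5*, a high-affinity potassium transporter, rose by 1.51 ± 0.27 in *prmt4a;4b* (adjusted p 0.00154) and had 139 ± 25.7 counts in *prmt5* against 122 ± 40.9 in WT (SD, n = 3). Of 5 regulators of the pathway and other SOS loci, 0 passed in *prmt5* in edgeR, with 0 at an unadjusted p below 0.05, and in *prmt4a;4b* *ABI1* and *ABI2*, phosphatases of which ABI2 binds SOS2, rose by 0.63 ± 0.13 and 0.61 ± 0.18 (adjusted p 0.00267 and 0.0207), while *SOS6*, a cellulose synthase-like gene, fell by 1.00 (SE 0.16, adjusted p 0.000668). Of 6 other genes of vitamin B6 metabolism, only *PDX1.3*, a subunit of the synthase, passed. It rose by 0.65 ± 0.14 in *prmt5* (adjusted p 0.00498) and by 0.84 ± 0.14 in *prmt4a;4b* (adjusted p 0.000858).

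**Figure D5:**
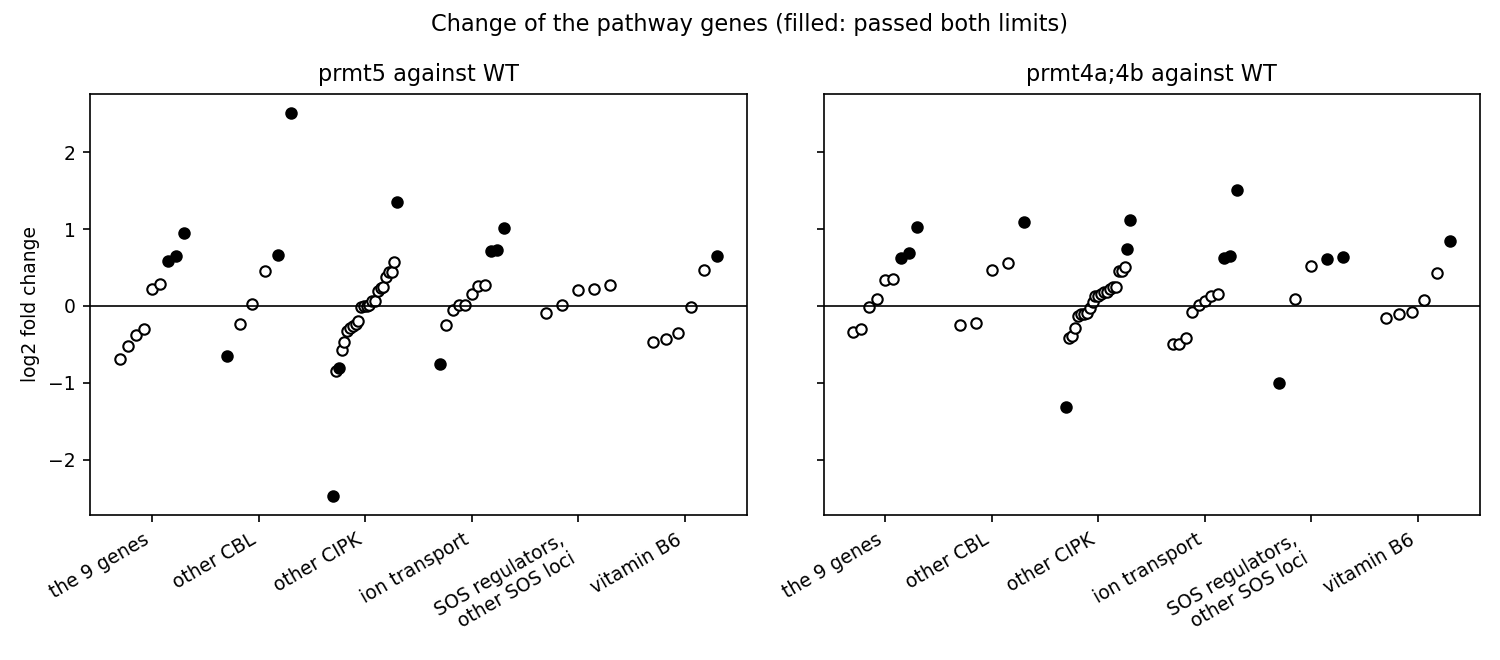
Log2 fold change against WT (y axis) of each tested gene of 6 lists (x axis) in *prmt5* (left) and *prmt4a;4b* (right), with 1 point per gene and filled points for genes past both limits. *CBL8* at 2.51 and *CIPK13* at -2.48 are the farthest points, both in *prmt5*.

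For each of the 5 genes called against WT, the genes with the most similar profile were found by Pearson's r of log2 CPM over the 9 libraries, among 17352 genes that averaged 50 reads or more. The libraries share genotype and depth, so these r describe likeness only. For *HKT1* they were AT4G19900 (r = 0.995) and AT5G57860 (r = 0.986), for *SOS1* AT5G01030 (r = 0.984) and AT4G38100 (r = 0.979), and for *SOS2* AT3G10760 (r = 0.978) and AT1G68600 (r = 0.966). For *SOS3* they were *PRA1.A2* (r = 0.966) and *UBC37* (r = 0.961), and for *CBL1* *HIPP22* (r = 0.965) and AT1G44120 (r = 0.963). No member of the set was among the 2 most similar genes of another.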

How the data were processed

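Reads of the 9 libraries, 3 per genotype, were aligned to TAIR10 by the authors with TopHat2 2.0.9, and the deposited tables hold raw read counts per gene, per AS bin and per intron, made by custom R scripts. The library kit is not described as stranded, so reads of a gene and of an antisense transcript cannot be told apart, and no other annotated gene overlaps any of the 9. The result tables of the authors (fold changes, FDR and splicing index) were not used. The study ran edgeR 3.4.2 in R 3.0.2. Here the deposited counts were tested with the quasi-likelihood method of edgeR 4.0.16 in R 4.3.3, with TMM factors from genes averaging 10 reads or more in at least 1 genotype, each mutant with WT in its own fit and the mutants in a fit of all 9 libraries, with Benjamini-Hochberg adjustment over all features tested. Genes were tested past the same limit. Bins and introns needed a mean of at least 5 reads in at least 1 of the genotypes fitted, so that a group where a bin is high can carry it past the limit, a gene read density above 0.05 in each and a splicing index above 0.05 in at least 1. The SE was taken as the log2 change over the root of F. Per-library splicing indices had 0.5 reads added on the log scale. The members and lists were chosen with earlier results of these data known. Every member was described, as was each of its bins or introns past the limits, and genes of the lists were named among those that passed. Chi-square over its degrees of freedom was 15.5 to 72.8 between replicates, more than counting error gives. The tests were checked on simulated counts, with changes placed only in features with more reads than most bins and introns called here. That check does not cover the bins and introns with few reads. Sequences and mRNA models are from RefSeq (TAIR10.1). Alternatives were other normalizations, tests (exact, DESeq2 1.42.0), filters, thresholds, fits, a replicate block and leaving out each library.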

Additional observations from a re-analysis of the deposited data

How the results depend on the processing

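Of 779 values of single genes, bins and introns under another setting, 680 kept their sign and their side of the limits, 75 lost a call, 7 gained one and 17 changed sign, all 17 for values that had not passed. A setting under which a feature no longer passed the filters is not among the 779, so calls lost in that way are missing from the 75. Where called against WT, *SOS1* I011 had 12 alternatives and *SOS2* I008, *SOS4* I007 and *NHX1* I013 had 13, beside 15 for *CIPK3* I015. Of 141 counts of changed members, 19 moved by more than 1.5 times. For introns in *prmt5* the count of 6 became 3 with DESeq2, 2 with a minimum of 20 reads and 3 at an adjusted p below 0.05. In *prmt4a;4b* an adjusted p below 0.05 left 1 gene and 1 AS bin of 3 each, and a minimum of 20 reads left 1 AS bin and 1 intron. In the fit of the 6 mutant libraries 2 introns differed between the mutants in place of 1. Leaving out 1 library gave 1 to 3 genes, 1 to 3 AS bins and 4 to 6 introns in *prmt5*, 1 to 4 of each in *prmt4a;4b*, and 1 to 3 genes, 0 AS bins and 0 to 2 introns between the mutants. Without 1 library each, some values crossed 0: *CBL1* in *prmt5* (-0.58 to 0.016), *SOS4* (-0.20 to 0.11, with 0.05 and 0.06), *CBL9* (-0.61 to 0.016) and *SOS3* (-0.22 to 0.30, with -0.14) in *prmt4a;4b*, and between the mutants *CIPK3* (-0.29 to 0.056), *CIPK3* E007 (-0.37 to 0.66, with -0.09 and -0.05), *CIPK3* I005 (-0.94 to 0.25), *NHX1* I013 (-1.56 to 0.82, with 0.13) and *SOS4* E003 (-0.035 to 0.46, with -0.01, and -0.13 with the gene count as offset). The cause was not tested.

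Same-numbered libraries correlated at -0.129 to 0.135 in their deviations, with 2 of 9 pairs above 0.1, so the numbers were not taken as pairs. A replicate block left every count of members as it was, except 5 in place of 6 introns in *prmt5* (*SOS4* I007 lost) and 2 in place of 3 AS bins in *prmt4a;4b* (*CIPK3* E007 lost). Over all features, the introns called in *prmt4a;4b* (2870) became 1629 with DESeq2, 1786 without filters, 1123 with a minimum of 20 reads, 1272 at an adjusted p below 0.05 and 1829 without *prmt4a;4b* library 3, those in *prmt5* (6076) became 2222 with a minimum of 20 reads, and between the mutants 3512 introns became 1577 and 2154 under those 2 limits and 455 AS bins became 244 at an adjusted p below 0.05 and 266 or 269 without *prmt5* library 2 or 3. All 60 splicing index differences kept their sign with 1 read added or with the reads of the gene outside the bin. Counts of under about 20 reads in every library limit *SOS1* I011, *SOS2* I008, *SOS4* I007, *NHX1* I013 and *CIPK3* E007 and I005. *SOS4* E003 and I002 were also under 20 reads in every WT library.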
